A study of Mus musculus with 2 samples.

Results

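Hox genes encode homeodomain transcription factors that pattern the body from head to tail. The 10 Hox genes described here are Hoxa3, Hoxa4, Hoxa5, Hoxa7, Hoxb4, Hoxb5, Hoxb6, Hoxb7, Hoxc6 and Hoxc8, taken by symbol as 10 of the 16971 genes in a single-cell count table of the mouse aorta. All 10 were in the table. The cells came from 2 droplet libraries (10x Chromium v2), each made from the whole aorta of a wild-type female C57/BL6 mouse aged 12 weeks, dissected from the root to the femoral bifurcation with perivascular fat removed and digested with enzymes for 1 hour at 37 °C. There was 1 group, with no treatment arm: the deposited table is named for the chow diet, and a Western diet, which the labels also mention, was not analysed here. The libraries are called library 1 and library 2 by the number at the end of each cell barcode, since the sources used here do not say which is the aorta labelled 1 and which the one labelled 3. The comparisons are therefore between the 10 populations that the authors named from the same cells, with n = 2 aortas.

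Hox genes lie in several chromosomal clusters, and a member's number, its paralogue group, follows its place in the cluster. Genes of low-numbered groups are switched on nearer the head of the embryo and genes of higher-numbered groups nearer the tail, and many cells of the adult body wall and its vessels keep the code of the level at which they formed. Hox proteins bind DNA together with cofactors of the Pbx and Meis families, and retinoic acid is a known inducer of the low-numbered groups in the embryo.

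The end of the homeobox encodes the helix that reads DNA. To show how alike the members are there, 36 coding bases from the end of each homeobox are given, in GRCm38 coordinates from the GENCODE M21 transcripts. Each window lies in the last coding exon of its gene. Capitals mark bases that differ from the most common base at that position among the 10 members. At the last position c and g were tied with 4 members each, and c was taken as the reference.
Hoxa3, chr6:52170522-52170557, minus strand: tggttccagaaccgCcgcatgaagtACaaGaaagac
Hoxa4, chr6:52190486-52190521, minus strand: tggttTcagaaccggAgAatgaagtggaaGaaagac
Hoxa5, chr6:52202635-52202670, minus strand: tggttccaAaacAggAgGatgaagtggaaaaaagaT
Hoxa7, chr6:52215846-52215881, minus strand: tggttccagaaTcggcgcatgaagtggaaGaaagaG
Hoxb4, chr11:96320197-96320232, plus strand: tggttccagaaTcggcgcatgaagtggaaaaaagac
Hoxb5, chr11:96305048-96305083, plus strand: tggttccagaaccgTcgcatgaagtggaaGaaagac
Hoxb6, chr11:96300830-96300865, plus strand: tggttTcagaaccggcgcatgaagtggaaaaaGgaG
Hoxb7, chr11:96289526-96289561, plus strand: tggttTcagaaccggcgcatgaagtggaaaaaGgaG
Hoxc6, chr15:103010895-103010930, plus strand: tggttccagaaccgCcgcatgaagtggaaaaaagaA
Hoxc8, chr15:102992712-102992747, plus strand: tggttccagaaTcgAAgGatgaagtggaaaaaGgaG
In these windows 24 of the 36 positions were the same in all 10 members. With that reference, Hoxb4 differed at 1 position and Hoxc8 at 6, and the windows of Hoxb6 and Hoxb7 were identical. Over the whole homeobox of 180 bases, the 45 pairs of members shared from 56.7% of bases, with a median of 75.6%, up to 88.9% for Hoxb6 and Hoxb7. Pairs of the same paralogue group on different chromosomes were also close, with 85% for Hoxa7 and Hoxb7, 83.9% for Hoxa5 and Hoxb5, 82.8% for Hoxa4 and Hoxb4, and 82.8% for Hoxb6 and Hoxc6.

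Library 1 had 11104066 UMIs (unique molecular identifiers, each standing for 1 captured RNA molecule) in 2260 cells, and its median cell had 4160.5. Library 2 was deeper, with 19484171 UMIs in 3191 cells and a median cell of 5636. Of the barcodes, 12 occurred in both libraries. The populations were smooth muscle cells (VSMC, 1103 cells in library 1 and 1056 in library 2), fibroblasts (Fibro 1, 390 and 757, and Fibro 2, 207 and 427), endothelial cells (EC 1, 148 and 277, EC 2, 56 and 173, and EC 3, 34 and 60), leukocytes (Mono 1, 181 and 262, Mono 2, 40 and 69, and Macro, 89 and 78) and a small population named Neuron (12 and 32). Markers went against some of these names. Macro carried T and NK cell markers at a summed 1443 and 1586 CPM (UMIs of the gene per 1000000 UMIs of the sum) and B cell markers at 1502 and 842 CPM, against 720 and 202 CPM of macrophage markers. Neuron carried Schwann cell markers at 5841 and 9207 CPM while 3 of the 4 neuron markers in the table had no UMI, and EC 3 carried lymphatic markers at 28186 and 11334 CPM. The authors' names are kept below as labels only.

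The 10 members were detected together in about the same share of smooth muscle, fibroblast and endothelial cells, and in far fewer leukocytes. At least 1 UMI of any member was present in 55.0% ± 5.62 of VSMC, 52.9% ± 1.27 of Fibro 1 and 55.3% ± 4.40 of Fibro 2 cells (mean ± SD over the 2 libraries). The share was 51.7% ± 10.1 in EC 1, 50.1% ± 7.67 in EC 2 and 49.3% ± 19.8 in EC 3, so at their own depths the libraries of these 6 populations overlapped. Mono 1, a leukocyte population taken as the background level, had 8.24% ± 0.853 of cells with a member UMI, where the median cell had 4261 UMIs, beside 6025 in VSMC and 4010 in EC 1. In Neuron 25% of the cells had a member UMI in each library.

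The gap to the leukocytes remained when depth was made equal. After every cell was thinned to 1300 UMIs, the share with a member UMI was 21.2% ± 0.462 in VSMC, 21.4% ± 5.62 in Fibro 1, 18.6% ± 2.42 in Fibro 2, 19.7% ± 5.86 in EC 1, 26.3% ± 4.43 in EC 2 and 22.2% ± 6.38 in EC 3. Both libraries of EC 2, at 23.2% and 29.5%, were above both of VSMC and of Fibro 2. It was 12.0% ± 5.16 in Neuron, 2.61% ± 0.995 in Mono 1, 2.17% ± 3.07 in Mono 2 and 1.84% ± 1.02 in Macro. The summed level of the 10 members was 183 and 171 CPM in VSMC, 213 and 161 in Fibro 1, 209 and 153 in Fibro 2, and 208 and 236 in EC 1 for libraries 1 and 2. It was 225 and 264 CPM in EC 2, 202 and 280 in EC 3, 69.3 and 107 in Neuron, and from 3.40 to 35.4 in the leukocytes. Within Fibro 1 and Fibro 2 the level was lower in library 2, and within the endothelial populations it was higher in library 2.

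**Figure D1:**
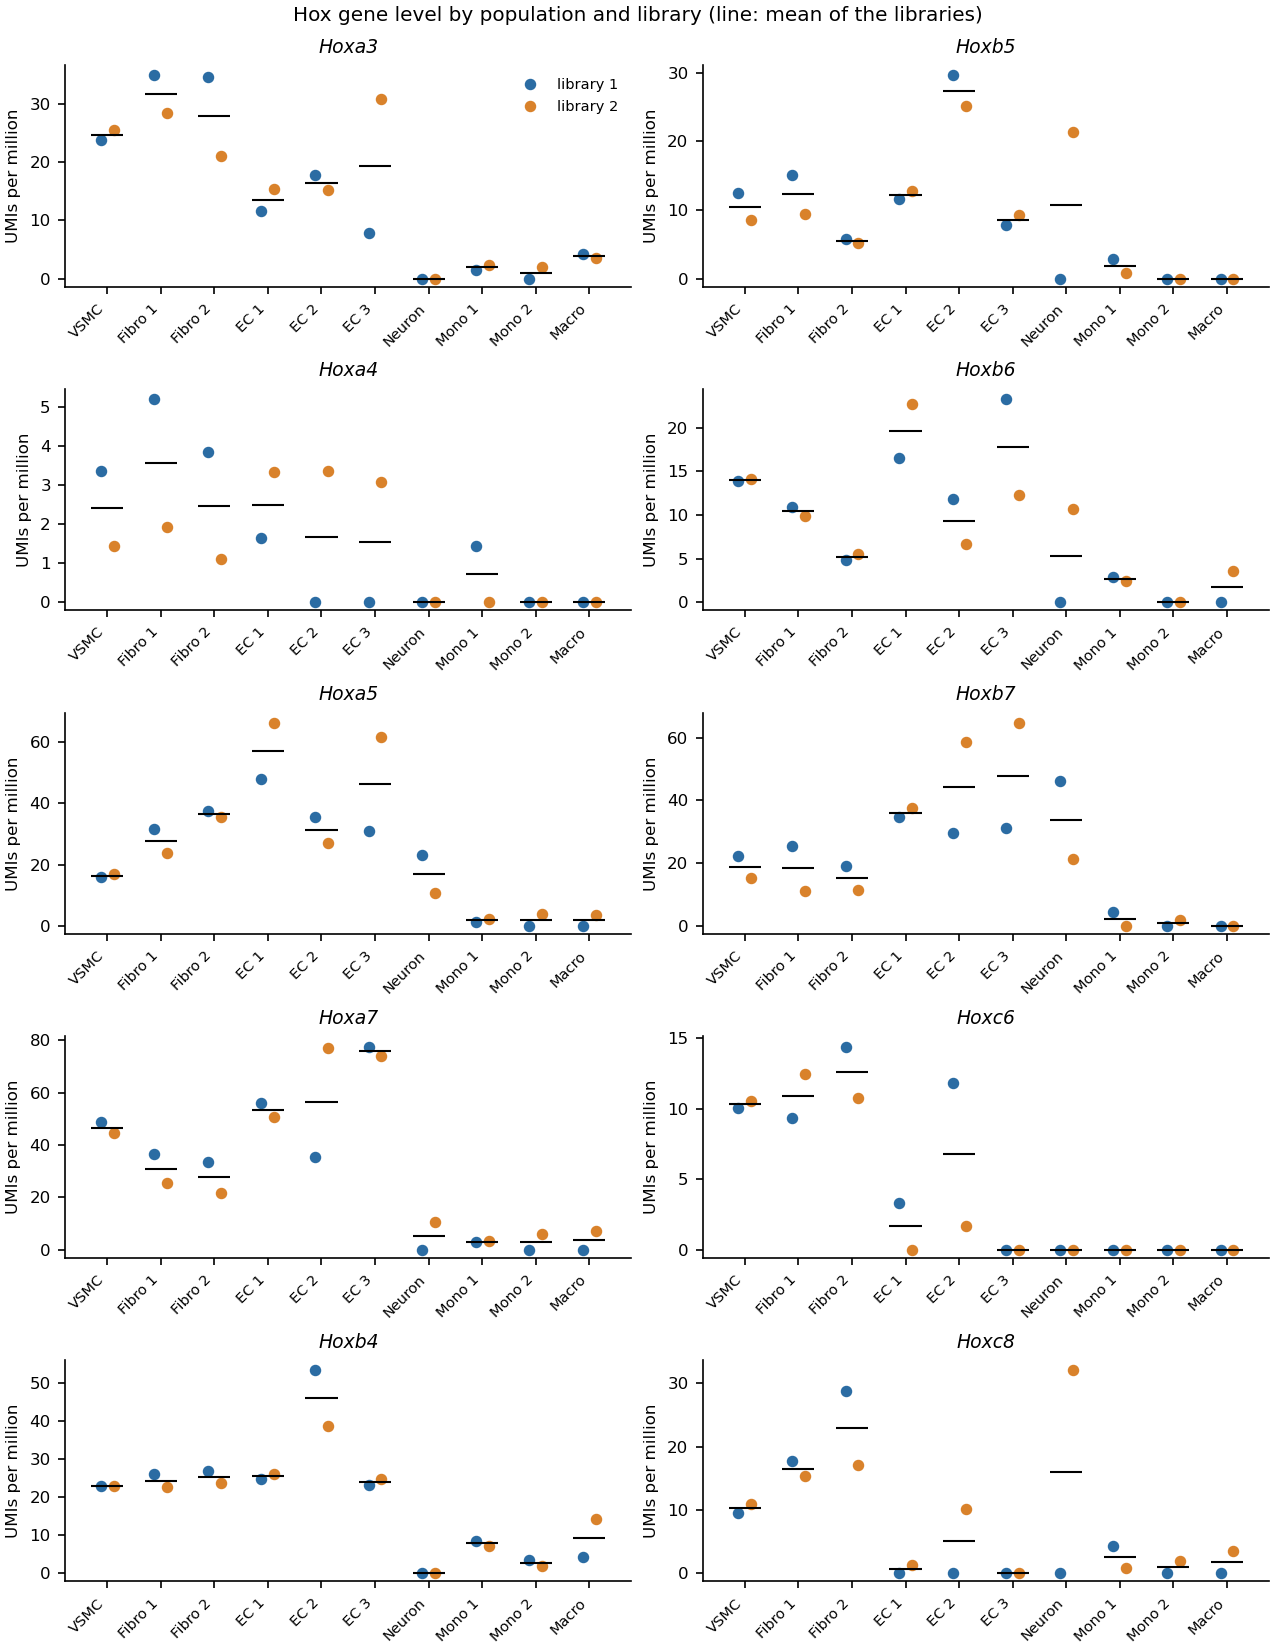
Level of each of the 10 Hox genes (CPM, vertical axes) in the 10 populations, with 1 point per library and a line at the mean of the 2 libraries. Hoxa5, Hoxa7, Hoxb4, Hoxb5, Hoxb6 and Hoxb7 reached their highest means in endothelial populations. Hoxc6 and Hoxc8 had at most 6 UMIs in any endothelial population, and all members were low in the leukocytes.

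**Figure D2:**
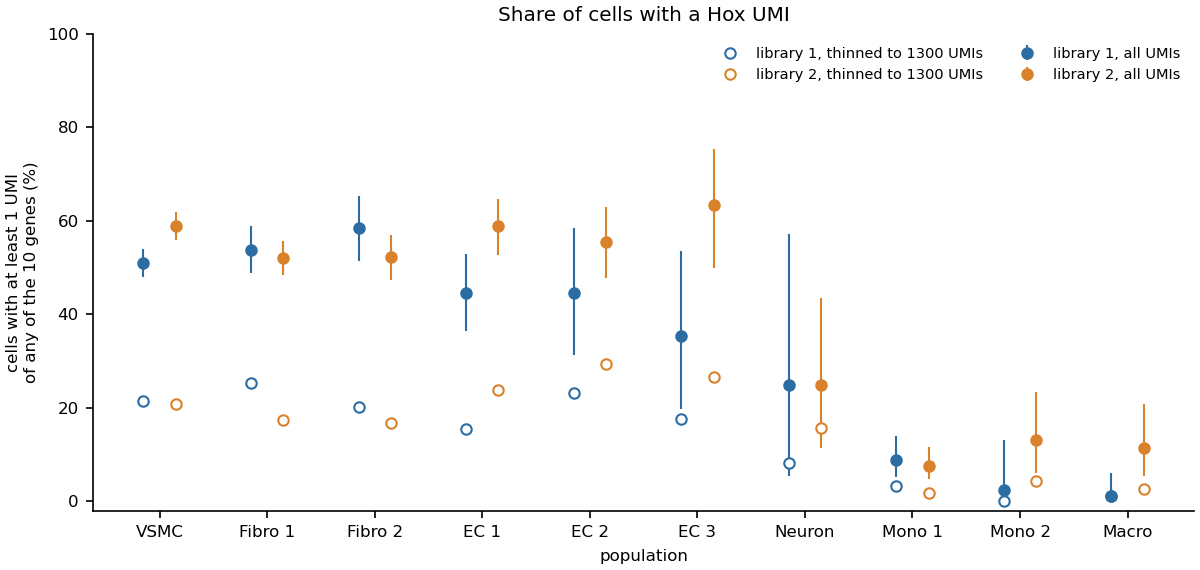
Share of cells (percent, vertical axis) with at least 1 UMI of any of the 10 Hox genes in each population, 1 filled point per library, with 95% Clopper-Pearson intervals that cover counting error only, and open points after thinning each cell to 1300 UMIs. With all UMIs, VSMC, fibroblasts and endothelial cells lie between 35.3% and 63.3%, and Mono 1 at 8.84% and 7.63%.

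Single members were sparse. Hoxa7, a member of the seventh paralogue group, had the most UMIs of the 10 (1120 in all cells), and Hoxa4 the fewest (67). A UMI of Hoxa7 was seen in 19.3% of VSMC in library 1 and 21.9% in library 2, and in 11.5% and 12.0% of Fibro 1 cells. In Mono 1, at its lower depth, the share was 1.10% and 1.15%. Hoxa4 was seen in at most 2.56% of the cells of any population in either library, so it could not be followed further and appears below as counts only.

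When populations were ordered by mean level, few neighbours in the order were separated by more than the spread between libraries. Hoxa7 was at 56.1 and 50.8 CPM in EC 1, 48.7 and 44.6 CPM in VSMC, 36.4 and 25.6 CPM in Fibro 1 and 33.6 and 21.8 CPM in Fibro 2. The libraries of EC 1, VSMC and Fibro 1 did not overlap, while those of Fibro 1 and Fibro 2 did. Above EC 1 stood EC 3, at 77.6 and 74.0 CPM, and EC 2, whose libraries lay far apart at 35.5 and 77.2 CPM. Hoxa5 was at 15.8 and 16.9 CPM in VSMC, below every fibroblast and endothelial value, of which 23.7 CPM was the lowest.

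The endothelial populations were compared with VSMC and fibroblasts to ask whether they carry the same Hox genes. The endothelial class gives equal weight to EC 3, the population with lymphatic markers. Hoxb7, Hoxa7 and Hoxa5 were higher in endothelium, and Hoxc8 and Hoxa3 were lower. Hoxb7, of the seventh group, was at 34.6 and 37.4 CPM in EC 1, 29.6 and 58.8 in EC 2 and 31.1 and 64.7 in EC 3, against 22.2 and 15.1 in VSMC, 25.5 and 11.2 in Fibro 1 and 19.2 and 11.5 in Fibro 2. Every endothelial value was above every one of the others. In the fit, which gives the 3 populations of a class equal weight, Hoxb7 was 1.48 ± 0.24 higher on the log2 scale (SE, adjusted p = 6.61e-06, edgeR quasi-likelihood test with Benjamini-Hochberg adjustment, as in all adjusted p-values here). The size rested on library 2: pooled cells gave 46.4 CPM in endothelium against 13.2 CPM there, and 33.2 against 22.5 CPM in library 1, where the log2 fold with equal weight of populations and a prior count was 0.24.

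Hoxa7 rose by 0.86 ± 0.17 on the log2 scale (edgeR adjusted p = 0.000116). Its pooled level was 55.3 against 44.3 CPM in library 1 and 60.4 against 34.6 CPM in library 2, higher in both, with log2 folds of 0.19 and 0.96. Hoxa7 in EC 2 of library 1, at 35.5 CPM, was below both VSMC values and below Fibro 1 of library 1. Hoxa5, of the fifth group, rose by 0.71 ± 0.19 (edgeR adjusted p = 0.00308), from 21.7 to 43.1 CPM in library 1 and from 22.3 to 55.9 CPM in library 2, with log2 folds of 0.22 and 0.77. VSMC gave the most UMIs to the pooled VSMC and fibroblasts and stood at 15.8 and 16.9 CPM. Pooled fibroblasts alone were nearer to endothelium, at 33.7 and 28.0 CPM. Single populations overlapped: EC 2, at 35.5 and 26.9 CPM, and EC 3 of library 1, at 31.1 CPM, were no higher than Fibro 2 of library 1, at 37.4 CPM. The 3 increases lost their calls when cells were thinned to 1300 UMIs, with log2 folds of 1.00, 0.70 and 0.69 and adjusted p of 0.0567, 0.0572 and 0.112 by edgeR.

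Hoxa3, the member that acts nearest the head, fell by 0.73 ± 0.23 on the log2 scale in endothelium (edgeR adjusted p = 0.0124). It was at 11.5 and 15.4 CPM in EC 1 and 17.8 and 15.1 CPM in EC 2, below all VSMC and fibroblast values, which ran from 21.1 to 34.8 CPM. EC 3 stood at 7.76 CPM in library 1 and 30.8 CPM in library 2, on 11 UMIs in all, so the groups overlapped in library 2. The log2 fold was -1.52 in library 1 and -0.51 in library 2.

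Hoxc8, of the eighth group, had 8 UMIs in endothelial cells against 321 in VSMC and fibroblasts. It was at 9.57 and 10.9 CPM in VSMC, 17.7 and 15.3 CPM in Fibro 1 and 28.8 and 17.0 CPM in Fibro 2. In EC 1 it was at 0 and 1.34 CPM, in EC 2 at 0 and 10.1 CPM, and in EC 3 at 0 in both libraries, so only EC 2 of library 2 reached the VSMC range. The pooled level was 5.58-fold lower in endothelium (95% counting interval 2.80 to 13.0), and the fit called it lower (edgeR adjusted p = 1.99e-05).

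Hoxc6, its neighbour in the HoxC cluster, followed the same pattern but did not pass the low-count filter and was not tested. It had 5 endothelial UMIs against 260, a level 7.23-fold lower (counting interval 3.06 to 22.5), at 4.42 against 10.4 CPM in library 1 and 0.414 against 11.2 CPM in library 2. EC 2 of library 1 alone reached the VSMC range, at 11.8 CPM on 2 UMIs. Hoxb4, Hoxb5 and Hoxb6 did not pass the threshold, with log2 differences of 0.20, 0.63 and 0.44. Hoxb4 was at 22.8 and 22.9 CPM in VSMC and 24.7 and 26.1 CPM in EC 1.

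Of the 8 members tested in this comparison, 3 were called higher and 2 lower. Among all 10488 genes tested 40.9% were called, 18.2% higher and 22.7% lower. The members' median difference was 0.53 on the log2 scale against -0.06 over all genes. Of 10 other Hox genes tested, 6 were higher and 1 lower in endothelium, with a median of 1.61. Hoxd4, Hoxd8 and Hoxd9 averaged at most 2.32 CPM in VSMC and in each fibroblast population. They passed the low-count filter only through endothelium, so that count and median depend on which genes passed. VSMC markers summed to 1940 and 1147 CPM in EC 1 and 3445 and 996 CPM in EC 2, against 33324 and 30534 CPM in VSMC, and fibroblast markers to between 598 and 1409 CPM in the endothelial populations against 24302 to 31890 CPM in fibroblasts. Their part in the members' endothelial levels was not tested.

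**Figure D3:**
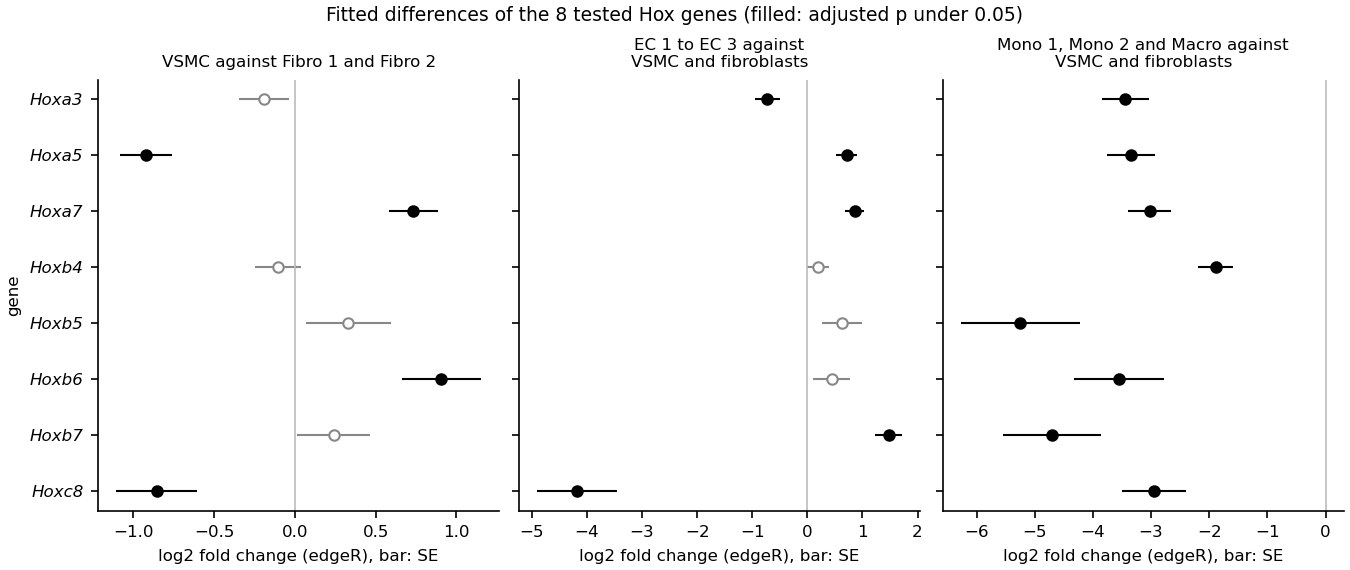
Log2 fold differences of the tested members (points, with bars of 1 SE from edgeR) in VSMC against fibroblasts, endothelium against VSMC and fibroblasts, and leukocytes against VSMC and fibroblasts. Filled points passed an adjusted p of 0.05. In endothelium Hoxb7 lies at 1.48 and Hoxa3 at -0.73, and in leukocytes every tested member lies below 0.

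The clusters of origin divided the same populations. Of all UMIs of Hox genes, those of the HoxC cluster made up 14.6% and 17.2% in VSMC of libraries 1 and 2, 15.1% and 20.9% in Fibro 1, and 24.3% and 25.7% in Fibro 2. In EC 1 they made up 2.21% and 0.28%, in EC 2 5.63% and 3.94%, and in EC 3 none of 81 and 197 UMIs. The HoxD cluster, which holds none of the 10 members, showed the opposite. It made up 0.83% to 2.19% of the Hox UMIs in VSMC and fibroblasts, 8.09% and 7.44% in EC 1, 9.86% and 16.9% in EC 2, and 53.1% and 36.5% in EC 3. These shares are of UMIs and are not corrected for transcript length, so they compare populations and not genes.

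**Figure D4:**
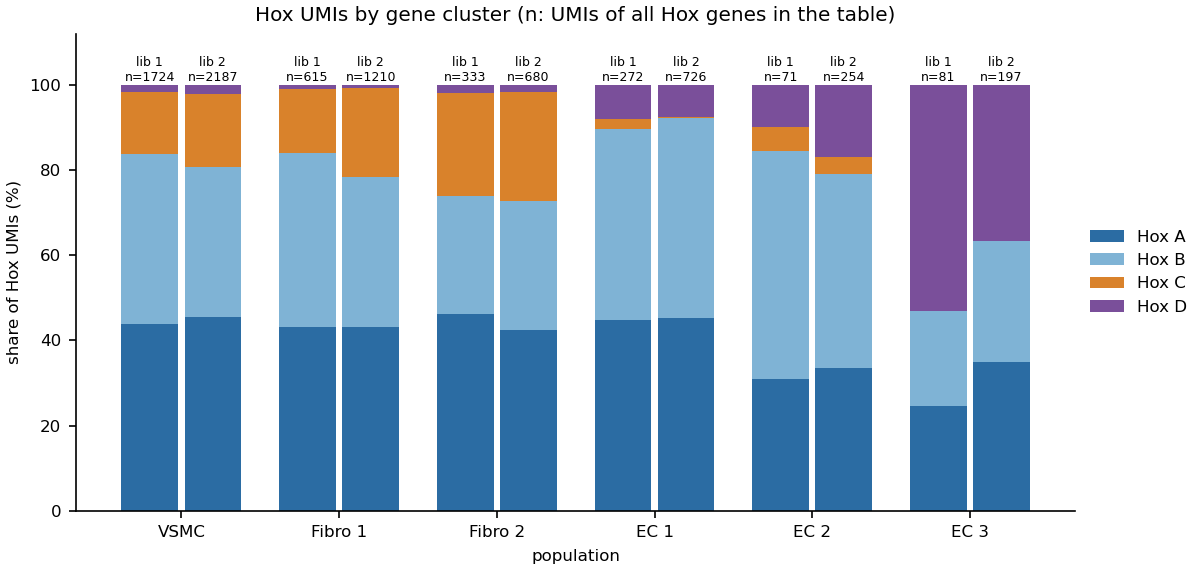
Share of Hox UMIs (percent, vertical axis) that came from the HoxA, HoxB, HoxC and HoxD clusters in the VSMC, fibroblast and endothelial populations, with a bar for each library. HoxC makes up 14.6% to 25.7% in VSMC and fibroblasts and at most 5.63% in endothelium, and HoxD reaches 53.1% in EC 3.

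The 10 members stood for a larger part of the Hox RNA of VSMC and fibroblasts, 59.3% to 66.5%, than of EC 1 (46.3% and 48.6%) or EC 3 (32.1% and 46.2%). In EC 2 they made up 53.5% and 61.8%. Hox genes outside the 10 with the clearest endothelial levels were Hoxd4, Hoxd8, Hoxd9 and Hoxb9. Hoxd9 was at 97.5 ± 15.8 CPM in EC 3, 15.6 ± 3.06 in EC 2 and 6.97 ± 0.54 in EC 1 (SD, n = 2), and between 0.37 and 2.32 CPM in VSMC and fibroblasts. Hoxd8 was at 75.1 ± 14.6 CPM in EC 3 and 7.80 ± 0.63 CPM in EC 1.

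The 3 endothelial populations were then compared with each other. Between EC 1 and EC 2, 1 of 8 members tested was called, Hoxa5, and it was higher in EC 1. Of all genes 20.3% were called, 11.1% higher and 9.23% lower. Hoxa5 was at 47.8 and 66.2 CPM in EC 1 and 35.5 and 26.9 CPM in EC 2, and was 1.19 ± 0.34 higher in EC 1 on the log2 scale (edgeR adjusted p = 0.0105). The libraries did not overlap, with log2 folds of 0.63 in library 1 and 1.42 in library 2, and after thinning to 1300 UMIs the fold was 0.59 and not called (edgeR adjusted p = 0.593). Hoxb6, at 16.5 and 22.7 CPM in EC 1 and 11.8 and 6.72 CPM in EC 2, did not pass (1.51 ± 0.58, edgeR adjusted p = 0.0634). Hoxb5 leaned the other way, at 11.5 and 12.7 CPM against 29.6 and 25.2 CPM in EC 2, and did not pass either (-0.98 ± 0.48, edgeR adjusted p = 0.17). Hoxb4 was at 53.3 and 38.6 CPM in EC 2, above its values in every other population (at most 26.9 CPM), and at -0.59 ± 0.33 between EC 1 and EC 2 it did not pass (edgeR adjusted p = 0.238). The members' median was -0.33 against 0.01 over all genes.

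Between EC 1 and EC 3 no member was called, where 11.6% of all genes were (5.97% higher and 5.64% lower), and none had an unadjusted p under 0.05. Between EC 2 and EC 3 no member was called either, against 11.7% of all genes (5.52% higher and 6.17% lower), and 2 had an unadjusted p under 0.05. DESeq2 also called none in these comparisons. The medians were 0.32 and -0.04 against 0.03 and 0.01 over all genes. EC 3 held 117 member UMIs and EC 2 195, so the levels there rest on few molecules.

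Other Hox genes did separate these populations. Hoxb9, which lies beyond Hoxb7 and Hoxb8 in the HoxB cluster, was at 56.4 ± 0.54 CPM in EC 1 and 6.32 ± 0.56 CPM in EC 2, and was 3.18 ± 0.57 higher in EC 1 (log2, edgeR adjusted p = 8.32e-05). Hoxa10 had 66 UMIs in EC 1 and none in EC 2, at least 8.0-fold higher. Hoxa9 was 1.59 ± 0.48 higher (edgeR adjusted p = 0.016). Against EC 3, Hoxd9 was 3.52 ± 0.49 lower in EC 1 and Hoxd8 3.03 ± 0.56 lower, on the log2 scale. Markers of other cells differed as well. Pericyte markers stood at 80.8 and 53.5 CPM in EC 1 and 1012 and 713 CPM in EC 2 (3 of 5 lower in EC 1, median -3.73), adipocyte markers at 1.65 and 56.1 CPM against 231 and 332 CPM, and 6 of 8 immediate early genes were lower in EC 1. Erythroid markers stood at 16588 and 5855 CPM in EC 1 and 3652 and 23392 CPM in EC 2, in opposite order in the 2 libraries. The part of these in the Hox differences was not tested.

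VSMC and fibroblasts share the wall, and their Hox levels differed in 4 of the 8 members tested, 2 higher and 2 lower in VSMC. Among all genes 48.3% were called in this comparison, 22.9% higher and 25.4% lower, so the members' share is close to that background. Hoxb6, of the sixth group, was at 13.9 and 14.1 CPM in VSMC, 10.9 and 9.90 CPM in Fibro 1 and 4.80 and 5.55 CPM in Fibro 2, and was 0.91 ± 0.24 higher in VSMC on the log2 scale (edgeR adjusted p = 0.00251). Hoxa7 was 0.73 ± 0.15 higher (edgeR adjusted p = 0.000136), at 44.6 CPM or more in each VSMC library and 36.4 CPM or less in each fibroblast sum. For both genes the VSMC values lay above all fibroblast values.

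Hoxa5 was 0.92 ± 0.16 lower in VSMC on the log2 scale (edgeR adjusted p = 1.36e-05), at 15.8 and 16.9 CPM against 31.7 and 23.7 CPM in Fibro 1 and 37.4 and 35.5 CPM in Fibro 2. Hoxc8 was 0.85 ± 0.25 lower (edgeR adjusted p = 0.00536), and here DESeq2 gave no call (adjusted p = 0.104). Hoxa3, Hoxb4, Hoxb5 and Hoxb7 did not pass, with log2 differences of -0.19 ± 0.16, -0.10 ± 0.14, 0.33 ± 0.27 and 0.24 ± 0.23. Hoxc6 stood at a ratio of 0.888 between pooled VSMC and fibroblasts (counting interval 0.691 to 1.14) and Hoxa4 at 0.908 (0.521 to 1.59). The members' median was 0.07 against -0.01 over all genes. Within the fifth group, then, Hoxa5 was lower in VSMC and Hoxb5 did not pass, and within the seventh Hoxa7 was higher and Hoxb7 did not pass. Whether the paralogues differ from each other was not tested.

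Between Fibro 1 and Fibro 2 no member was called, where 15.5% of all genes were (8.3% higher and 7.2% lower), although 3 of 8 had an unadjusted p under 0.05. DESeq2 called none. Hoxb5, at 15.1 and 9.47 CPM in Fibro 1 and 5.76 and 5.18 CPM in Fibro 2, had the largest difference (1.07 ± 0.39, edgeR adjusted p = 0.063). Hoxb6 followed with 0.95 ± 0.38 (edgeR adjusted p = 0.0995), and Hoxa5 stood at -0.43 ± 0.21 (edgeR adjusted p = 0.189). The 2 libraries did not overlap for Hoxb5 and Hoxb6. Outside the 10, the neighbouring gene Hoxb8 was called, 1.45 ± 0.50 higher in Fibro 1 (edgeR adjusted p = 0.0484). The members' median was 0.21 against 0.02 over all genes.

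In the leukocyte populations all 8 tested members fell against VSMC and fibroblasts, where 30.8% of all genes were lower and 54.5% were called in all. The highest mean of a single member in these populations was 9.17 CPM, of Hoxb4 in Macro. The tested members thus passed the low-count filter only through other populations, which favours a lower level here. The members' median was -3.39 on the log2 scale against -0.11 over all genes. Hoxb4 had the smallest difference, -1.89 ± 0.31 (edgeR adjusted p = 4.13e-06), on 22 UMIs in the leukocytes, of which 15 were in Mono 1. Hoxa7, on 11 leukocyte UMIs, stood at -3.03 ± 0.37. Hoxb5 had 3 UMIs, a level 0.0946 times that of VSMC and fibroblasts (counting interval 0.0194 to 0.28), and Hoxc6 had none and was at least 11.8-fold lower. In Mono 1 VSMC markers summed to 1257 and 767 CPM and fibroblast markers to 545 and 1014 CPM. The part of RNA from other cells in the leukocytes' member UMIs was not tested.

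The population named Neuron, 44 cells with Schwann cell markers, held 13 member UMIs, 4 of them of Hoxb7 and 3 of Hoxc8. Hoxa3 and Hoxb4 had none, which makes them at least 1.29-fold and 1.09-fold lower than in fibroblasts. These 2 of 8 members were called lower in the fit (edgeR adjusted p = 0.0436 and 0.0344), where 12.2% of all genes were called, 4.53% higher and 7.67% lower. With RLE size factors or DESeq2 neither was called, and the all-gene calls moved from 475 higher and 804 lower to 545 and 602 with RLE factors and to 720 and 509 with DESeq2. The median of all genes stood at -0.33 with TMM factors and moved by 0.19 with RLE factors, and the members' median was -1.0. At 3 counts, a count of 0 allows a share of cells with a UMI of up to 25% in library 1 and 9.38% in library 2, at a median of 2468 UMIs, and it sets no limit on cells that express the gene.

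Other genes of the Hox system were followed as lists. Of 7 tested TALE cofactors (the Pbx, Meis and Pknox proteins that bind DNA with Hox proteins), 4 were lower and none higher in endothelium than in VSMC and fibroblasts. Among all genes 22.7% were lower. Meis1 stood at -2.48 on the log2 scale and Meis2 at -1.21. For Meis2 only EC 2 stood apart, at 6.32 CPM: EC 1 was at 102 and EC 3 at 88.9 CPM, beside 79.9 in VSMC, 99.4 in Fibro 1 and 88.7 in Fibro 2. The difference between EC 1 and EC 2 was 4.06 ± 0.44 for Meis2 on the log2 scale by edgeR. In VSMC against fibroblasts 3 of the 7 were lower, where 25.4% of all genes were, among them Pknox1 at -0.78 ± 0.20 and Meis1 at -0.53 ± 0.15. EC 2, with the lowest mean Meis2 level of the 3 endothelial populations, held the 10 members at a summed 225 and 264 CPM.

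Of 11 tested genes from a list of retinoic acid and Cdx homeobox genes, 6 were lower and none higher in VSMC than in fibroblasts. Among all genes 25.4% were lower there. The largest differences were in Aldh1a3 (-5.25), Aldh1a1 (-4.25) and Aldh1a2 (-3.46), which encode enzymes that make retinoic acid. Cyp26b1, of the same list but not of the Aldh1a genes, was also called lower (-1.63 ± 0.57, edgeR adjusted p = 0.0193). Its fibroblast level varied widely between the libraries, at 8.44 ± 8.56 CPM (SD), against 1.74 ± 0.33 CPM in VSMC. Aldh1a3 also separated the fibroblasts, at 6.09 CPM in Fibro 1 and 104 CPM in Fibro 2. Among the noncoding RNAs of the Hox clusters, 3 were tested and all 3 were higher in VSMC than in fibroblasts, where 22.9% of all genes were higher. Hotairm1, a noncoding RNA of the HoxA cluster, was at 52.5 ± 3.25 CPM against 26.2 ± 2.74 CPM, and Hoxb3os at 27.3 ± 5.15 CPM against 15.6 ± 2.27 CPM. Of 11 tested Polycomb and Trithorax genes, whose proteins hold Hox genes silent or active, 5 were higher and 1 lower in VSMC, where 48.3% of all genes were called, with Suz12 at 0.80 ± 0.17 and Rnf2 at -0.65 ± 0.16. The median of these 11 genes was -0.28 on the log2 scale, against -0.01 over all genes.

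The genes whose level followed the summed members most closely over the 20 sums of populations and libraries were Tns2, Prkcdbp, Id3, Gna11 and Nckap1, with Pearson r of log2(CPM + 5) from 0.93 to 0.94. The 20 sums share 2 animals, and the low leukocyte values set much of the range: Tns2 ran from 4.03 to 182 CPM.

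Within single cells, members were rarely seen together. VSMC and fibroblasts with at least 2500 UMIs were thinned to that number, which kept 3389 of 3940 cells. In each population and library, endothelial ones included, 50% to 69.8% of such cells had no member UMI and 0% to 4.17% had UMIs of 3 or more members, and no cell had more than 4. Of the 45 pairs of members, 26 had a higher share of cells with 1 member among cells with the other member than among cells without it, over the pooled VSMC and fibroblasts. In 3 pairs the share was higher in all 6 sums of population and library. Hoxb7 was seen in 7.53% of cells with Hoxa7 and 3.63% of cells without, Hoxb4 in 9.94% of cells with Hoxa5 and 5.62% without, and Hoxa5 in 8.33% of cells with Hoxa3 and 4.80% without. Hoxa7, in contrast, was seen in 5.83% of cells with Hoxa3 and 8.42% without, and was higher with Hoxa3 in 1 of 6 sums, a pair chosen after its values were seen. These shares are descriptions of sparse counts with no test.

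To ask what else differs between cells with and without the members of groups 6 to 8, the same thinned cells were split by at least 1 UMI of Hoxa7, Hoxb6, Hoxb7, Hoxc6 or Hoxc8. There were 627 cells with such a UMI and 2762 without. Their full UMIs were summed per population and library, giving 6 pairs of sums from the 2 animals, and fitted with edgeR with a block for each pair. The 5 genes that made the split are left out of what follows. A cell without a UMI is not a cell without the RNA, so each side of the split holds both kinds of cell. Median depth was 5069 to 7465 UMIs in the cells without and 5853.5 to 7381.5 in the cells with a UMI.

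Hand2, which encodes a transcription factor of the heart, pharyngeal arches and neural crest, had the largest fall among the genes that passed the naming rule. In Fibro 1 it was at 27.5 CPM in cells without and 6.78 CPM in cells with a UMI of groups 6 to 8 in library 1, and at 27.5 and 5.33 CPM in library 2. In Fibro 2 it was at 23.8 and 0 CPM in library 1 and at 20.8 and 2.57 CPM in library 2, and in VSMC at 27.2 and 3.44 CPM and at 38.6 and 8.97 CPM. All 6 pairs went the same way and the groups did not overlap. The log2 difference was -2.44 ± 0.23 (edgeR adjusted p = 1.13e-06). Counted by cells, a Hand2 UMI was seen in 7 of 627 cells (1.12%) with and 147 of 2762 cells (5.32%) without a UMI of these Hox genes.

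Hoxb8, the gene between Hoxb7 and Hoxb9, rose. It was at 9.64 CPM in cells without and 37.3 CPM in cells with a UMI in Fibro 1 of library 1, at 6.41 and 14.7 CPM in library 2, and at 9.39 and 21.5 CPM and 6.22 and 14.2 CPM in VSMC. In Fibro 2 it was at 1.32 and 9.99 CPM and at 3.16 and 7.71 CPM. It was higher in 6 of 6 pairs (1.32 ± 0.22, edgeR adjusted p = 0.00402). Pax1, a paired-box factor of the embryonic sclerotome, also rose in 6 of 6 pairs (1.37 ± 0.19, edgeR adjusted p = 0.000471), from 45.4 to 125 CPM in Fibro 1 of library 1 and from 12.6 to 38.6 CPM in library 2. Without the block Pax1 lost its call.

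The members of groups 3 to 5 were not called between these cells over the 3 populations. Hoxa3 stood at -0.19 ± 0.16 (edgeR adjusted p = 0.91), with 25.4 and 23.9 CPM in VSMC of library 2. Hoxa5 stood at 0.67 ± 0.17 (edgeR adjusted p = 0.101), higher in 4 of 6 pairs, with 11.9 against 26.7 CPM in VSMC of library 1 and 14.6 against 26.2 CPM in library 2 but 38.4 against 35.0 CPM in Fibro 2 of library 1. In VSMC alone Hoxa5 rose by 0.97 (edgeR adjusted p = 0.00438). That fit had 1 residual degree of freedom, against 5 in the main split, so its adjusted p carries little weight. Hoxa5 was also called with no filter and with the state not thinned. Its difference between VSMC and fibroblasts did not pass (0.54 ± 0.32, edgeR adjusted p = 0.85). Hoxb4 (0.41 ± 0.16) and Hoxb5 (0.47 ± 0.24) did not pass either. A UMI of any member of groups 3 to 5 was seen in 129 of 627 cells (20.6%) with and in 511 of 2762 cells (18.5%) without a UMI of groups 6 to 8.

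**Figure D5:**
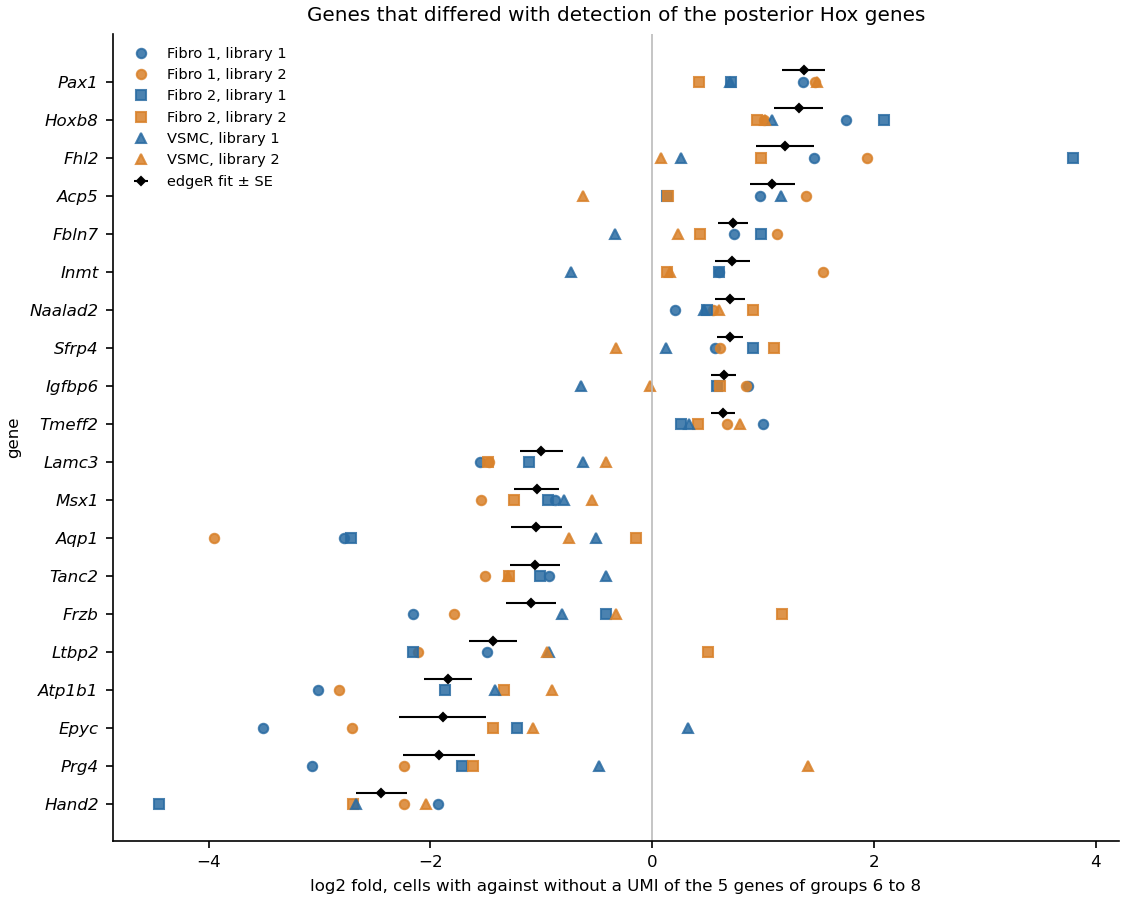
Log2 differences of named genes between VSMC and fibroblast cells with and without a UMI of Hoxa7, Hoxb6, Hoxb7, Hoxc6 or Hoxc8, with 1 point for each of the 6 pairs of sums and a diamond for the edgeR fit ± SE. Hand2 lies between -1.93 and -4.45 in all pairs and Hoxb8 between 0.95 and 2.09, while Igfbp6 lies above 0 in the 4 fibroblast pairs and at -0.64 and -0.02 in the VSMC pairs. Pair values use normalized library sizes and a prior count, so near 0 their sign can differ from that of the CPM.

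In all, 44 of 8744 genes were called (0.503%), 17 higher (0.194%) and 27 lower (0.309%), and 594 had an unadjusted p under 0.05. Of the members tested and not used in the split, 0 of 4 were called, 2 had an unadjusted p under 0.05, and DESeq2 called none of the 3 for which it gave an adjusted p. Beside Pax1 and Hoxb8, the named genes that rose were Fhl2 (1.20 ± 0.26), Acp5 (1.08 ± 0.21), Fbln7 (0.73 ± 0.13), Inmt (0.72 ± 0.16), Naalad2 (0.70 ± 0.14), Sfrp4 (0.70 ± 0.12), Igfbp6 (0.65 ± 0.11) and Tmeff2 (0.64 ± 0.11). Sfrp4 encodes a secreted modulator of Wnt signalling and Igfbp6 a binding protein of insulin-like growth factors. Fibroblast markers moved with the state in Fibro 1, from 23458 to 27897 CPM in library 1 and from 28161 to 34407 CPM in library 2. VSMC markers in Fibro 1 went from 1827 to 1326 CPM and from 1060 to 630 CPM, and over the split the 5 erythroid markers had a median of -0.54, with none called and 3 at an unadjusted p under 0.05. The part of these in the results was not tested.

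The named genes that fell after Hand2 were Prg4 (-1.92 ± 0.32), Epyc (-1.89 ± 0.39), Atp1b1 (-1.84 ± 0.21), Ltbp2 (-1.44 ± 0.22), Frzb, Tanc2 (-1.06 ± 0.22), Aqp1, Msx1 (-1.04 ± 0.20) and Lamc3 (-1.0 ± 0.20). Prg4 encodes lubricin, Epyc a small proteoglycan of cartilage, Ltbp2 a matrix protein of the microfibrils and Msx1 a homeobox factor outside the Hox clusters. In VSMC Prg4 was at most 2.24 CPM and Epyc at most 1.15 CPM, so their falls rest mainly on the fibroblasts. Each fell in 5 of 6 pairs. Prg4 stood at 1.41 in VSMC of library 2 and Epyc at 0.32 in VSMC of library 1, on the log2 scale. Atp1b1, a subunit of the sodium pump, was lower in 6 of 6 pairs, from 85.4 to 10.2 CPM in Fibro 1 of library 1 and from 95.6 to 13.3 CPM in library 2, and from 33.2 to 12.0 CPM and 23.7 to 12.7 CPM in VSMC. The number of calls depended on both libraries, with 1 call from library 2 alone and 9 from library 1 alone, 5 without the block and 11 by DESeq2. Hand2 was called in each of these. Of the TALE cofactors none of 7 was called, and none had an unadjusted p under 0.05.

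Counts of some members are uncertain. In GENCODE M21, Hoxa3 overlaps the same-strand gene Gm28308 and opposite-strand genes, and Hoxa4, Hoxa7 and Hoxb5 each overlap an opposite-strand gene, while the other 6 members overlap none. How the authors' counting treated such overlaps is not given in the sources used here.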

How the data were processed

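The authors' deposited table holds raw UMI counts for 16971 genes in 5451 cells. Per the submitters' processing notes, the authors used Cell Ranger 2.1. Which genome and annotation the counts rest on is not given in the sources used here. The authors' deposited population names were taken as given. The members and all gene lists were chosen with earlier results of these data known.

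UMIs were summed per population and library (at least 10 cells) and fitted with edgeR 4.0.16 in R 4.3.3: filterByExpr, TMM, quasi-likelihood test, population and library as terms (10488 genes, 9 residual degrees of freedom), Benjamini-Hochberg over all genes, call at 0.05. Each library is 1 animal and holds every population, so the library pairs the sums by design and is the replicate block. The split by groups 6 to 8 had 12 sums, a block per population and library, and 5 residual degrees of freedom. CPM is a gene's UMIs per 1000000 UMIs of a sum. Fold floors used 3 counts over the population. Cells held 1322 to 14968 UMIs. Intervals are 95% Clopper-Pearson (shares) or exact binomial (ratios) and cover counting error only.

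All members were named, other Hox genes with at least 50 UMIs, up to 4 called genes of each other list by absolute fold, in the split the 10 called genes of largest fold either way whose total was 50 UMIs or more and whose 2 libraries had the same sign, and the 5 genes most like the summed members. Alternatives were RLE factors, DESeq2 1.42.0, no filter, no block, each library alone, removal of the 46 and 34 cells that Scrublet (scanpy 1.11.5) called doublets, thinning, and other definitions of the split; the interaction with cell class was chosen after seeing the data. The fits were tested on simulated data. Python 3.11.15 was used.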

Additional observations from a re-analysis of the deposited data

Results flagged for a closer look

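In 2 genes of the split by Hox groups 6 to 8, the effect of the state differed between VSMC and fibroblasts by a test of the difference itself, an interaction term in edgeR that was chosen after seeing the data. For Fhl2, which encodes a LIM-domain protein, the log2 difference between cells with and without a UMI of these Hox genes was 0.22 in VSMC and 1.95 in the fibroblasts, so the effect in VSMC minus that in fibroblasts was -1.75 ± 0.35 (SE, edgeR adjusted p = 0.0325). Fhl2 was higher in cells with a UMI in 6 of 6 pairs, from 24.8 to 74.6 CPM in Fibro 1 of library 1 and from 18.1 to 22.4 CPM in VSMC of library 1. For Igfbp6 the log2 difference was -0.24 in VSMC and 0.82 in fibroblasts, a difference of -1.07 ± 0.21 (edgeR adjusted p = 0.0309). Igfbp6 was higher in the 4 fibroblast pairs, and its VSMC level was low, at 26.8 and 17.2 CPM in library 1 and 28.5 and 29.2 CPM in library 2. Of 8744 genes, 11 were called in this test, 3 higher and 8 lower, and 558 had an unadjusted p under 0.05. Sfrp4 (-0.95 ± 0.20, edgeR adjusted p = 0.0601) and Fbln7 (-0.96 ± 0.21, edgeR adjusted p = 0.0628) did not pass, and Hand2 stood at 0.16 ± 0.63 (edgeR adjusted p = 0.991), with log2 differences of -2.39 in VSMC and -2.54 in fibroblasts.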

How the results depend on the processing

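The blocks of the main fits remove the overall difference between the 2 libraries, or between the 6 pairs of sums in the split. The p-values measure how far differences between populations, or between states, varied over these libraries or pairs. Each library is 1 animal, so this variation is estimated from only 2 animals. Several sums from the same animal also enter the fits as separate observations. Single members rest on few UMIs. A population comparison within 1 library is a value with no test, so no count was possible there. Thinning every cell to 1300 UMIs left only Hoxa5, Hoxa7 and Hoxb7 to test, so the other members could not be called. It gave 2 calls in place of 4 for VSMC against fibroblasts, 0 in place of 1 for EC 1 against EC 2, 0 in place of 5 for endothelium, 3 (all those tested) in place of 8 for leukocytes and 0 in place of 2 for Neuron, whose called members were no longer tested. Thinning also reduced the genes tested to 6879 and the calls over all genes, from 5061 to 2765, 1626 to 743, 2130 to 1270, 1218 to 692, 1226 to 660, 4290 to 2340 and 5712 to 3122 for VSMC, the fibroblasts, the 3 endothelial pairs, endothelium and leukocytes. Between the fibroblasts DESeq2 gave 1078 and no replicate block 939 calls. For Neuron, RLE factors gave 0 member calls, DESeq2 0 and no filter 1. The share of cells with a member UMI fell with thinning to 21.2%, 21.4%, 18.6%, 19.7%, 26.3%, 22.2% and 2.61% in VSMC, Fibro 1, Fibro 2, EC 1, EC 2, EC 3 and Mono 1, and the share in Mono 1 was 7.35% without doublets.

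The replicate block mattered most in the split: without it 5 genes were called in place of 44, all 5 among the 44, and all 44 kept their direction. The block changed no member call. The split gave 11 calls with DESeq2, 166 with no filter and 121 in VSMC alone (Hoxa5 among them). It gave 116 with the state not thinned, 25 with thinned UMIs summed, and 1 to 9 with 1 library left out. The fit in VSMC alone had 1 residual degree of freedom, so its calls carry little weight. Of the 44 genes, 37 were called with the state not thinned and 22 in VSMC alone. Directions reversed for Hoxa3 when the state was set by any of the 10 members, which then include it (1.70), and in VSMC alone for Igfbp6 (-0.24), Inmt (-0.27) and Sfrp4 (-0.046); the cause of the last 3 was not tested. Hand2 was called in every alternative that gave it a value, from -1.43 to -2.88. Over single members, 118 values kept their call or stayed within the spread, 21 moved and 10 lost their call. That spread is the SD of the 2 libraries' own folds, so a main value midway between them always counts as within it. For the named genes of the split and the tested members of groups 3 to 5, 170 values kept their call status. Of the rest 88 lost their call, 6 gained a call and 4 reversed.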
